A study of Mus musculus with 7 samples.

Results

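The genes of CTCF and of the cohesin complex were examined in the open chromatin of HPC7, a mouse hematopoietic progenitor cell line. The 9 genes were Ctcf, Ctcfl, Rad21, Smc1a, Smc3, Stag1, Stag2, Nipbl and Wapl, of 21938 protein-coding genes in the GENCODE M21 annotation of mm10. They were chosen by name, and every listed peak that overlapped a gene or the 10 kb on either side of it was assigned to that gene. After peaks of the 7 libraries that shared at least 1 bp were merged, 107 open chromatin regions (OCRs) of 144931 in all lay in these windows, and 70 when the same number of peaks was taken from every library. Bulk ATAC-seq, in which the Tn5 transposase inserts adapters into accessible DNA, had been performed on 7 libraries, HPC7-1, HPC7-2 and HPC7-4 to HPC7-8, and peaks had been called in each of them. The study used these libraries to obtain OCR profiles of the line and excluded a further library that had few reads. The labels give a single group, cells of 1 line. By the study's description the line was kept in medium with mouse stem cell factor and bovine calf serum. The comparisons below are between genes within a library. Peak names inside the lists begin with VD in 3 libraries and with EtOH in 4, which the labels do not explain, so whether the cells were handled alike is not known.

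The lists held between 84593 OCRs in HPC7-6 and 132852 in HPC7-1. Intensity is the fold enrichment, the reads at the summit plus 1 over the background of the library plus 1, and its percentile is the rank of a peak among all peaks of its library. Background ranged from 4.44 reads in HPC7-2 to 20.4 in HPC7-1, and the weakest listed peak of a library had a fold enrichment between 1.68 and 2.44. All 10 marker genes of hematopoietic progenitors carried an OCR at the promoter in every library, at mean percentiles from 83.7 to 98.7. Of 8 defining genes of other cell types 3 did, at mean percentiles of 61.7 to 75.6. Krt14 had one in 6 libraries, Neurod1 in 4 and Cd3e in 2, and Alb and Ins2 had none in any library.

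CTCF is a zinc finger protein that binds DNA at insulators and at the borders of chromatin loops. Cohesin is a ring of SMC1, SMC3 and the kleisin RAD21, to which STAG1 or STAG2 binds. NIPBL loads the ring onto DNA and drives the extrusion of loops, WAPL releases it, and loops end where cohesin meets CTCF in a given orientation. CTCFL, also called BORIS, is a paralogue of CTCF whose expression is normally restricted to the male germ line.

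A promoter OCR is a peak within 3 kb of any annotated start of a gene. Of the 9 genes, 8 had a promoter OCR in all 7 libraries, against 60.8% of all protein-coding genes, and in these 8 it was always among the top 25% of its library, against 50.4%. Ctcfl had none in any library, as 32.0% of all protein-coding genes. The median of the 8 mean percentiles was 96.7. Over all protein-coding genes with a promoter OCR in any library, also those with one in fewer than 7, the median was 92.0. The highest promoter stood at Stag1 and the lowest of the 8 at Nipbl.

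RefSeq promoter sequences on GRCm38.p6, the build of mm10, were at hand for 5 of the 9 genes, Ctcf, Smc1a, Smc3, Stag1 and Wapl. Those of Stag1, Ctcf and Smc1a are shown, since they stand for the strongest promoter, for the gene of the factor itself and for the X chromosome. Each is the plus strand 5′ to 3′ and ends 1 base before the RefSeq start, with the GC box, the CCAAT box and the YY1-like motif in capitals. The first lies at chr9:100643198-100643447, the second at chr8:105636288-105636537 and the third at chrX:152016296-152016427, where 118 bases of an exon of Ribc1 were left out.
Stag1: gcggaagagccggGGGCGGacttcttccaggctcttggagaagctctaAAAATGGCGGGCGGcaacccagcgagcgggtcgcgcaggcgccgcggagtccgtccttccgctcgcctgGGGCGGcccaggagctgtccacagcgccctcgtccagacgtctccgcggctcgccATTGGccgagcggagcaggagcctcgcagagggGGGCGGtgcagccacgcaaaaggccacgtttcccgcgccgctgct
Ctcf: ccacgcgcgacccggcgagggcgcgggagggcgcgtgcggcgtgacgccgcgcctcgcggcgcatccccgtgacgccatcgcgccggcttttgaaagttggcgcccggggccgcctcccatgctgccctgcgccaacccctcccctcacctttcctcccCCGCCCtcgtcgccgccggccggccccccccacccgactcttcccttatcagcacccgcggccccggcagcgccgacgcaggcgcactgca
Smc1a: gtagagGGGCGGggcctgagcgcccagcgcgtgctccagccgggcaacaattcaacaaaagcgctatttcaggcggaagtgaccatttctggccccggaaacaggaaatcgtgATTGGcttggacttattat
The windows from 250 bases before to 50 after the start were searched on both strands. The GC box GGGCGG was found in 5 of the 5 windows and in 47.8% of 20150 promoter windows of protein-coding genes. The CCAAT box was found at Smc1a, Stag1 and Wapl and in 37.8% of all windows. A YY1-like motif, AANATGGCG, was found at Ctcf, Smc3 and Stag1 and in 3.27% of all windows. At Stag1 it overlaps a GC box, and at Ctcf and Smc3 it lies in the 50 bases after the start, which are not shown. The ETS core CCGGAAG, the NRF1 motif GCGCATGC, the E-box CACGTG, the sequence TATAAA and the CTCF core consensus were found in none of the 5 windows, and in 11.9%, 3.65%, 8.03%, 12.1% and 0.581% of all windows. GC content was 75.3% at Ctcf, 73.7% at Stag1, 67.0% at Wapl, 65.0% at Smc3 and 58.3% at Smc1a, against a median of 57%. The observed over expected CpG was between 0.903 at Smc1a and 1.16 at Ctcf, where the median of all windows was 0.588. The 5 windows thus lay above that median in both measures.

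Ctcf lies on chromosome 8 from 105636568 to 105682922, on the plus strand. Its promoter OCR had a fold enrichment of 106 in the lowest library, 134 in the median and 165 in the highest (mean 135 ± 20.2, SD, n = 7), with 674 to 3516 reads at the summit. The mean percentile was 97.8 ± 0.525. It was a broad OCR, 3562 ± 342 bp, wider than that of most promoters (mean width percentile 95.5), with the summit at -93 bp from the nearest start in the median library. Of the 5 annotated starts, 4 lay inside this OCR in all 7 libraries, and the remaining one, 39.4 kb downstream, inside none. The merged OCR also covers the starts of the noncoding gene Gm5914 and of Agrp, and ATAC-seq does not assign it to one of them.

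Among the genes of the ring, Stag1 stood out. It encodes one of the alternative STAG subunits and lies on chromosome 9 from 100597798 to 100959375, on the plus strand. The promoter fold enrichment was 152 in the lowest library, 205 in the median and 264 in the highest (205 ± 40.1), at a mean percentile of 99.5 ± 0.0875. Among the promoters of all protein-coding genes, those without an OCR counted as 0, it stood at the 97.4 percentile. The OCR lies at the starts from 100643448 onward, 45.7 kb downstream of the most upstream annotated start. At that upstream start no OCR was listed within 3 kb in any library. Of 14 annotated starts 7 lay inside an OCR in all 7 libraries, and 7 inside none.

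Stag2, the other STAG gene, lies on the X chromosome from 42149317 to 42277185, on the plus strand. Its promoter fold enrichment was 71.8 in the lowest library, 100.2 in the median and 109 in the highest (92.1 ± 15.6), at a mean percentile of 94.8 ± 0.963. In every library it was below that of Stag1, and the ranges of the genes over the libraries did not overlap. All 8 of its starts lay inside an OCR in every library, and the promoter OCR was 3482 ± 527 bp wide and also covers the start of Gm37564. Smc1a, the other X-linked gene and one of the ATPase arms of the ring, lies from 152016428 to 152062694 on the plus strand. Its promoter had a fold enrichment of 62.9 to 113 with a median of 92.9 (91.0 ± 17.7), at a mean percentile of 94.6 ± 0.867. The OCR is shared with Ribc1, which is transcribed the other way, and of 5 annotated starts of Smc1a only the most upstream lay inside an OCR.

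Smc3, the partner of SMC1 in the ring, lies on chromosome 19 from 53600398 to 53645833, on the plus strand. Its promoter fold enrichment was 93.1 in the lowest library, 127.9 in the median and 152 in the highest (125 ± 21.7), at a mean percentile of 97.2 ± 0.338. The summit lay at -365 bp from the nearest start in the median library, the farthest among the 8 genes, and the OCR also covers the start of AC137853.1, a transcript of uncertain type. Rad21, which closes the ring and is cut when sister chromatids separate, lies on chromosome 15 from 51962240 to 51991747, on the minus strand. Its values were 93.9, 132 and 145 (127 ± 18.99) in the same order, at a mean percentile of 97.4 ± 0.433. The ranges of Smc3 and Rad21 overlapped over the libraries. HPC7-6 had the lowest fold enrichment of the 7 libraries at each of the 8 genes.

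Of the loader and the release factor, the loader had the lower values. Nipbl, on chromosome 15 from 8290617 to 8444463 and on the minus strand, had a fold enrichment of 45.2 in the lowest library, 62.3 in the median and 79.1 in the highest (61.2 ± 10.3). Its mean percentile was 91.0 ± 1.43 among all peaks and 63.3 ± 1.79 among the promoters of all protein-coding genes. At the same time its promoter OCR was the widest of the 8, with 4517 ± 782 bp and a mean width percentile of 98.1. Wapl, on chromosome 14 from 34673928 to 34747983 and on the plus strand, had 72.6, 121 and 127.6 (110 ± 20.4) in the same order, at a mean percentile of 96.2 ± 0.870. Its OCR is shared with 5830448L01Rik, a noncoding transcript from the opposite strand. Of 7 annotated starts of Wapl 3 lay inside an OCR in all 7 libraries and 4 inside none.

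**Figure D1:**
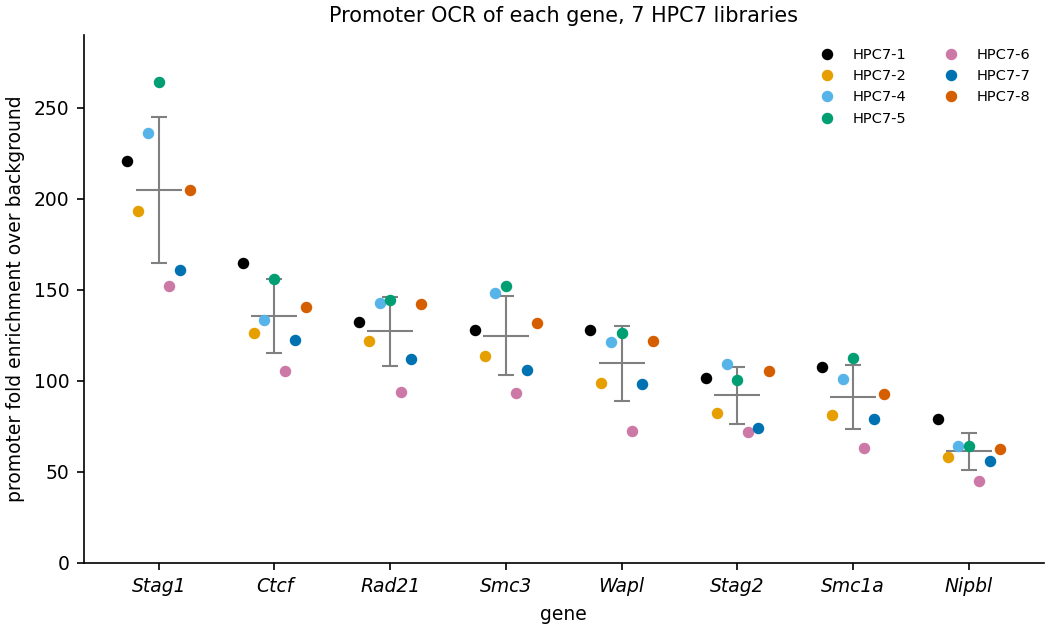
Fold enrichment of the promoter OCR over the background (vertical axis, linear) for the 8 genes with one, each point 1 of the 7 libraries in its own colour and the grey bars mean and SD. Stag1 lies above the other genes in every library, from 152 to 264, and Nipbl below them, from 45.2 to 79.1.

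Whether the promoters differ in intensity was tested within libraries for the 28 pairs of the 8 genes. An exact sign-flip permutation test of the difference in log10 fold enrichment was used, two-sided and with Benjamini-Hochberg adjustment over the 28 pairs. Pairs of other promoters were not tested, so a count of pairs that pass does not set these genes apart. Of the 28 pairs, 24 differed, each with the same sign in 7 of 7 libraries, thus also within the libraries of either prefix, and with the smallest p that 7 libraries allow (exact permutation p = 0.0156, adjusted p = 0.0182). Stag1 was 1.499-fold above Ctcf, the next in order, and 2.21-fold above Stag2. Nipbl was 1.48-fold below Smc1a, its neighbour, and 3.33-fold below Stag1. The neighbours Ctcf and Rad21 differed by 1.07-fold, or 0.03 ± 0.04 on the log10 scale (exact permutation p = 0.109, adjusted p = 0.118), and Ctcf and Smc3 by 1.09-fold (exact permutation p = 0.0781, adjusted p = 0.0875). Rad21 and Smc3 differed by 1.02-fold (exact permutation p = 0.281, adjusted p = 0.292) and Stag2 and Smc1a by 1.02-fold (exact permutation p = 0.641, adjusted p = 0.641). These 4 pairs did not pass the test, and their differences were no larger than their SD over the libraries. The pairs of Ctcf with Rad21 and Smc3 passed in the opposite direction once intensity was scaled by chromosome, as given next.

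The order depended on the chromosome. Relative to the median over autosomes of each chromosome's median promoter fold enrichment, chromosome 8, which holds Ctcf, stood at 1.40 ± 0.0176 (SD, n = 7) and the X chromosome, which holds Smc1a and Stag2, at 0.740 ± 0.0343. The chromosomes of the other genes stood between 0.946 and 1.01. What sets these chromosome levels was not tested. After division by the median promoter of its own chromosome, the order was Stag1, Rad21, Stag2, Smc3, Smc1a, Wapl, Ctcf and Nipbl, so that Ctcf moved from place 2 to place 7. Ctcf was then 1.35 ± 0.0744 times its chromosome's median promoter, Stag1 2.90 ± 0.276 times and Nipbl 0.861 ± 0.0801 times. On this scale 19 of the 28 pairs differed. The differences of Ctcf from Wapl, Stag2 and Smc1a had the opposite sign and still passed (-0.07, -0.11 and -0.10 on the log10 scale, exact permutation p = 0.0156, adjusted p = 0.0243). Rad21 and Smc3, which had not differed from Ctcf, were then 1.32-fold and 1.27-fold above it in 7 of 7 libraries (exact permutation p = 0.0156, adjusted p = 0.0243). Of the 24 pairs, 7 no longer passed, namely Stag2 and Smc1a each with Rad21, Smc3 and Wapl, and Smc3 with Wapl. Among these, the differences of Stag2 from Smc3 and Wapl and of Smc1a from Wapl changed sign. On both scales Stag1 was above each of the other 7 genes and Nipbl below them, in 7 of 7 libraries.

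**Figure D2:**
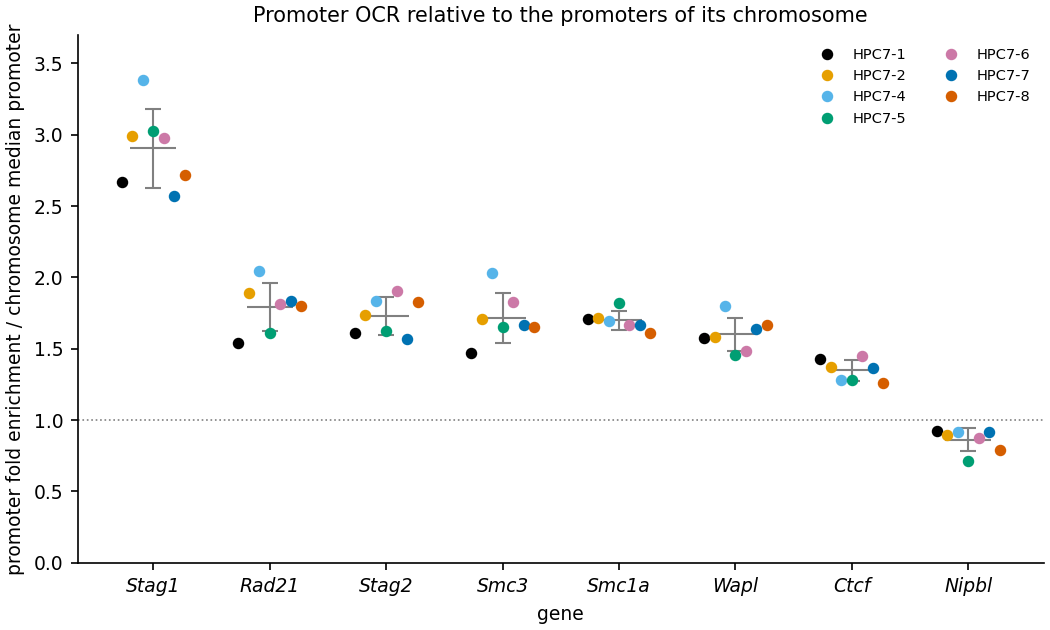
Promoter fold enrichment divided by the median promoter of the same chromosome in the same library (vertical axis, no unit), 1 point per library, grey bars mean and SD, and the dotted line the chromosome's median promoter. Ctcf is in place 7 on this scale with a mean of 1.35, and Nipbl lies below 1 in every library.

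The promoters nearest to Ctcf in level were found by the Euclidean distance of log10 fold enrichment over the 7 libraries, among 13340 other genes with a promoter OCR in all of them. The nearest 3 were Tgfb1 on chromosome 7, at a distance of 0.0415, and Trappc2l and Galns on chromosome 8, which have the same values, at 0.0423. Rad21 took rank 601, Smc3 1171, Wapl 2764, Stag2 4718, Smc1a 4823, Stag1 4897 and Nipbl 8022.

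The windows also held OCRs away from promoters. Of the 107 merged OCRs, 43 (40.2%) had a peak in all 7 libraries, against 46.2% of all merged OCRs, and 22 (20.6%) had a peak in 1 library, against 17.9% of all merged OCRs. Of these 22, 14 were in HPC7-1, the library with the highest background in reads. By position 21 OCRs lay at an own promoter, 10 at a promoter of another gene, 46 in introns, 5 over exons, 9 in the 5′ and 16 in the 3′ flank. Over the summed windows of 1091 kb there were 6.77 ± 1.36 OCRs per 100 kb (SD, n = 7). The median over protein-coding genes was 7.89, a value per gene that a sum weighted by window length does not match in kind. Gene by gene, Ctcf, Smc3, Ctcfl, Rad21 and Smc1a stood at density percentiles of 81.0, 67.8, 58.6, 56.1 and 55.2 among protein-coding genes. Nipbl, Stag2, Stag1 and Wapl stood at 46.9, 36.6, 35.7 and 31.2. Ctcf had the densest window, with 17.9 ± 2.53 per 100 kb, and Wapl the sparsest, with 3.19 ± 0.614. Stag1 had 26 merged OCRs, the highest number, in the longest window, 382 kb, which made 4.23 ± 1.32 per 100 kb.

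**Figure D3:**
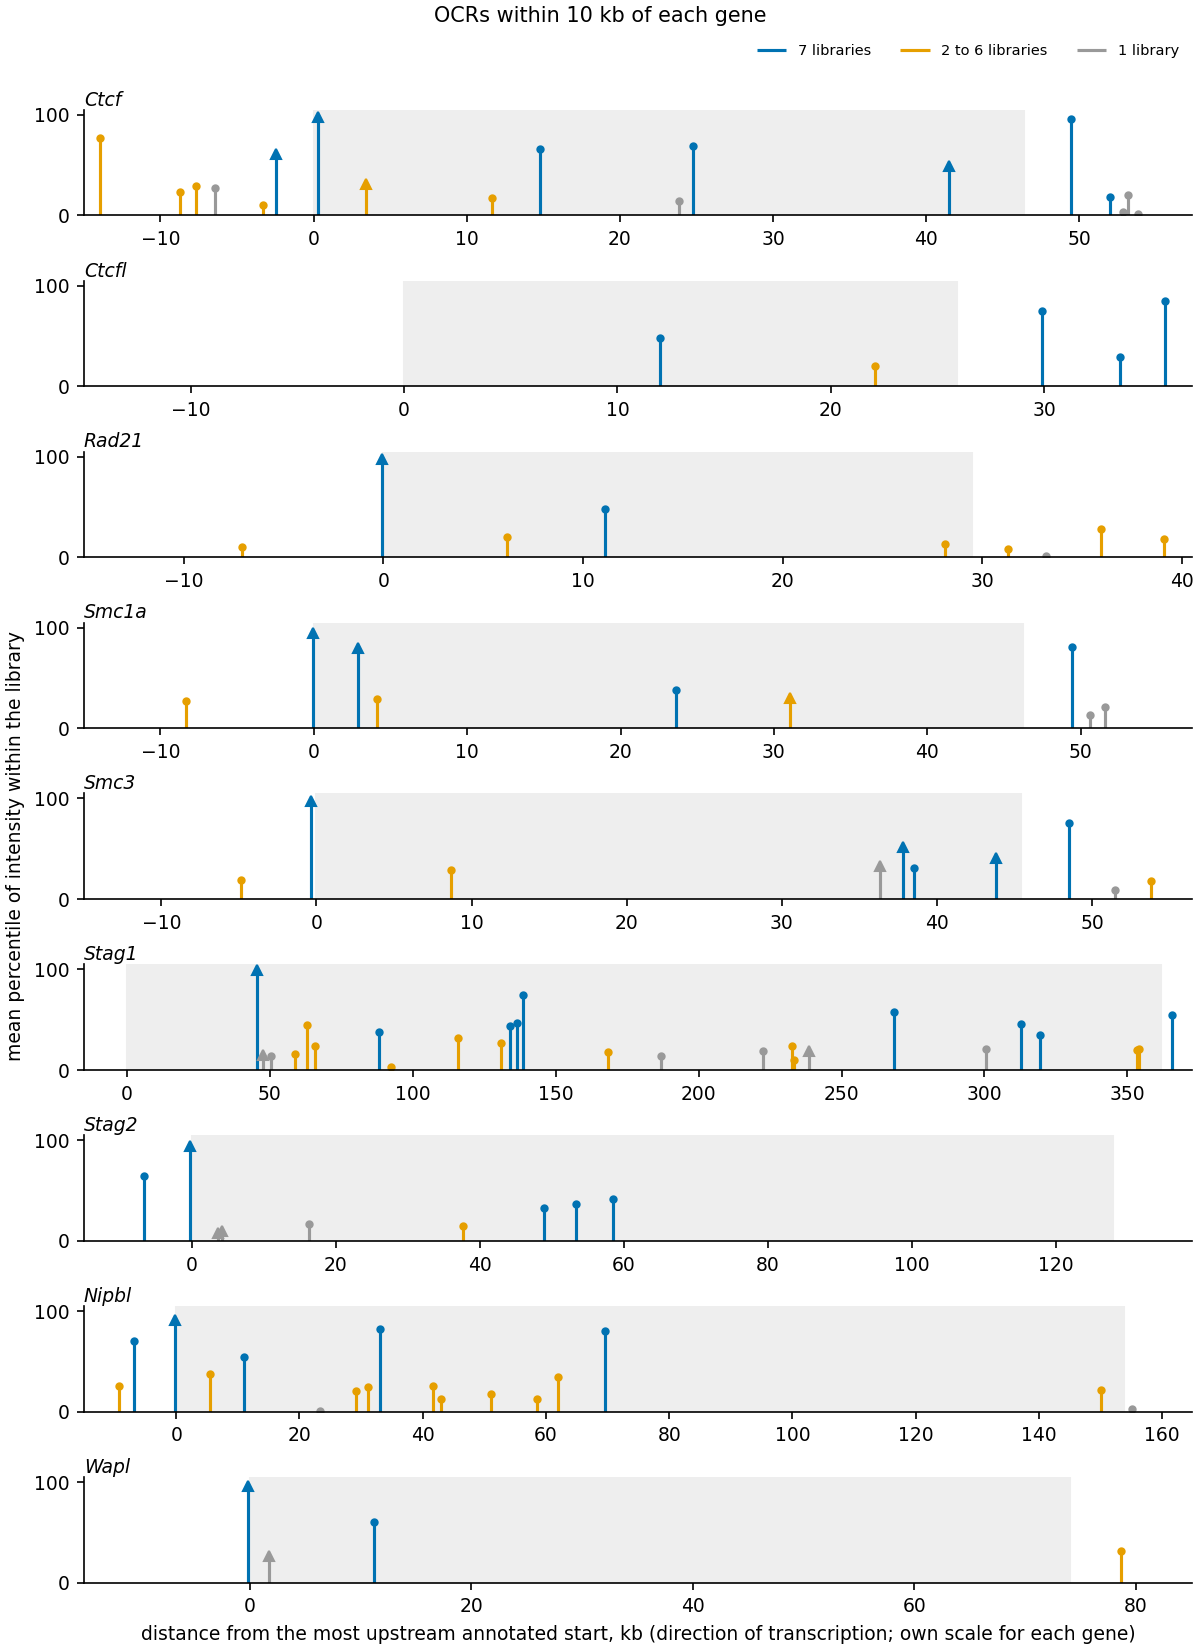
OCRs of each gene by distance of the median summit from the most upstream annotated start (horizontal axis, kb in the direction of transcription, own scale for each gene) and mean intensity percentile within the library (vertical axis), with the gene body in grey, triangles at own promoters and circles elsewhere. Ctcfl has no OCR near its start, and the strongest OCR of Stag1 lies inside the annotated gene, away from its most upstream start.

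The OCRs outside any promoter numbered 76. Those with a peak in all 7 libraries, 27, had a median fold enrichment of 7.61, and those in 2 to 6 libraries, 37, of 3.49. A peak is listed only above the threshold of its library, so weak OCRs are found in fewer libraries by construction. Each of the 9 genes had at least 1 OCR outside promoters in all 7 libraries. The share of all protein-coding genes with such an OCR was not computed, so the count does not set these genes apart.

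Nipbl had the strongest intronic OCRs. One lay at 8410869 to 8412377, 33.1 kb inside the gene, with a fold enrichment of 20.8 in the lowest library, 25.3 in the median and 35.0 in the highest (25.9 ± 4.88), at a mean percentile of 82.0 ± 2.66. The other lay at 8374424 to 8375216, 69.5 kb inside, with 16.7, 25.3 and 27.2 (22.8 ± 4.39), at a mean percentile of 80.2 ± 2.90. Both were present in all 7 libraries, and neither reached the level of the promoter in any library. A further OCR, at -6.79 kb from the start, had a fold enrichment of 13.1 ± 1.67.

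Smc1a and Smc3 had strong OCRs beyond their 3′ ends. At Smc1a the OCR from 152065429 to 152066275 had a fold enrichment of 14.9 to 31.2 with a median of 24.3 (24.0 ± 5.54), at a mean percentile of 80.7 ± 3.699. At Smc3 the OCR from 53648082 to 53649851 had 10.8 to 21.1 with a median of 17.4 (17.0 ± 3.58), at a mean percentile of 75.3 ± 4.77. Within Stag1 the strongest was intronic, from 100736115 to 100736923, with 12.5 to 20.9 and a median of 16.0 (16.2 ± 3.02). At Stag2 it lay at -6.57 kb from the start (10.3 ± 1.498), and at Wapl in an intron from 34684882 to 34685365 (9.07 ± 1.41). Rad21 had only weak OCRs outside its promoter, the strongest intronic from 51980110 to 51980905 (6.53 ± 1.57).

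The promoter was compared with the strongest OCR outside promoters in the same window by the same exact permutation test, with Benjamini-Hochberg adjustment over the 8 genes. The share of all protein-coding genes whose promoter would pass was not computed, so the results do not set these genes apart. The promoter was higher by 2.34-fold at Nipbl, 3.83-fold at Smc1a, 7.39-fold at Smc3, 8.87-fold at Stag2, 12.02-fold at Wapl, 12.6-fold at Stag1 and 19.8-fold at Rad21, each in 7 of 7 libraries (exact permutation p = 0.0156, adjusted p = 0.0179). At Ctcf it was higher in 6 of 7 libraries, by 8.62-fold (exact permutation p = 0.0312, adjusted p = 0.0313). Without any 1 of the libraries other than HPC7-7 the difference was 0.88 to 0.94 on the log10 scale, against 0.94 with all of them, and the adjusted exact permutation p was 0.0625, where 6 libraries allow no p below 0.0312. In HPC7-7 a peak with a fold enrichment of 128.1 reached 19 bp into the window of Ctcf from the region near Mir1966, with its summit outside. It was counted as outside promoters because it begins more than 3 kb from the start of Mir1966. The peaks of the same OCR in HPC7-1 and HPC7-4, with fold enrichments of 167 and 178 also above the Ctcf promoter, overlap the 3 kb around the start of Mir1966 and were left out, so the 8.62-fold rests on a class that differs between libraries. With only peaks whose summit lies inside the window, an alternative chosen after seeing the data, Ctcf was higher by 12.3-fold in 7 of 7 libraries (exact permutation p = 0.0156, adjusted p = 0.0156). Its strongest other OCR was then the intronic one from 105651128 to 105651581, at 11.4 ± 3.32. With promoters taken as 1 kb around starts the difference at Ctcf did not pass (exact permutation test, adjusted p = 0.125).

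**Figure D4:**
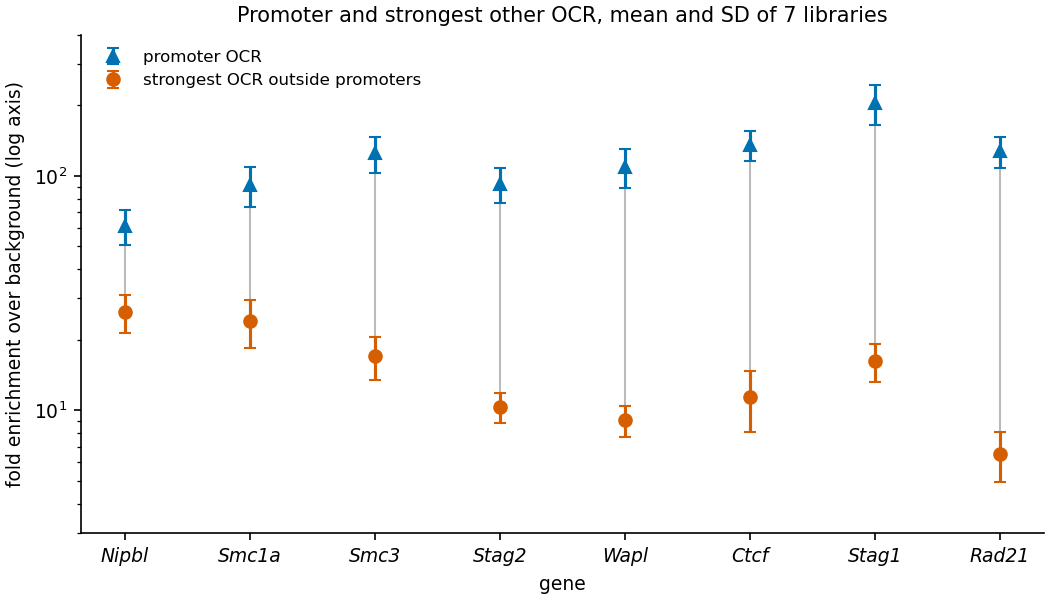
Fold enrichment (vertical axis, log scale) of the promoter OCR (triangles) and of the strongest OCR outside promoters with its summit in the window (circles), mean and SD of 7 libraries. The distance is smallest at Nipbl, 2.34-fold, and largest at Rad21, 19.8-fold.

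Other promoters lay in the windows, mainly in that of Ctcf. The promoter OCR of Carmil2, beyond the 3′ end of Ctcf, had a fold enrichment of 78.1 to 143 (110 ± 22.6) in all 7 libraries. That of the pseudogene Gm5915 inside Ctcf had 12.2 ± 2.39, and in Stag1 that of Gm37204 had 3.78 ± 0.477 in 5 libraries. At the upstream edge of the window of Ctcf, peaks from the region near Mir1966 reached in, with summits outside the window in HPC7-1, HPC7-4 and HPC7-7.

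Ctcfl, on chromosome 2 from 173093609 to 173119525 and on the minus strand, was the only one of the 9 genes without a promoter OCR. It has 1 annotated start, and in none of the 7 libraries was a peak listed within 3 kb of it. The window held 5 merged OCRs, 4 of them in all 7 libraries, and 10.3 ± 1.06 OCRs per 100 kb, above the median over protein-coding genes. The nearest to the start lay 11.99 kb inside the gene, over an exon, with a fold enrichment of 4.70 to 6.85 (6.10 ± 0.804). The strongest lay beyond the 3′ end, from 173083220 to 173084389, with a fold enrichment of 28.0 in the lowest library, 31.7 in the median and 39.9 in the highest (33.1 ± 4.44), at a mean percentile of 84.9 ± 1.96. It was the most intense OCR outside promoters among the 9 windows by mean fold enrichment. Another in the same flank, from 173089160 to 173090519, had 13.9 to 21.8 with a median of 15.1 (16.0 ± 2.75).

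The CTCF core consensus, a sequence of 12 letters, was searched on both strands in the 107 merged OCRs. It was found in 3 of them (2.80%, exact Clopper-Pearson 95% interval 0.582% to 7.98%, counting error only), against 4.94% of all merged OCRs, and with the reversed consensus as a control in 0 of 107, which allows a share of up to 2.80%, and 0.0324% of all. The reversed consensus always holds a CpG and the core consensus never does, so the control is not matched to it in CpG. The 4 sites are shown because they are all those in these OCRs, as 30 bases on the strand of the match with the core in capitals. The first 2 lie in the promoter OCR of Stag1, with cores at chr9:100643573-100643584 and chr9:100643631-100643642 on the plus strand, 219 and 277 bp from the median summit. The next lies in the OCR beyond the 3′ end of Ctcfl whose fold enrichment was 16.0, with its core at chr2:173089658-173089669 on the minus strand, 27 bp from the median summit. The last lies near Mir1966, in the OCR that reaches into the window of Ctcf, with its core at chr8:105622566-105622577 on the plus strand and outside the window itself.
Stag1 first site: gcagcgcggCCAGCAGAGGGCggtcgggac
Stag1 second site: tggaaaatgCCACCAGATGGCgggttagga
Ctcfl site: atctagtgcCCACCAGAGGGCaggcgtcaa
Ctcf edge site: gagctgtcgCCACCAGGGGGCagcagaact
In the OCRs of Rad21, Smc1a, Smc3, Stag2, Nipbl and Wapl the consensus was not found. A match describes the letters only, and binding was not examined here. The study compared its OCRs with public CTCF ChIP-seq peaks of HPC7, which were not used here. The lack of a match therefore does not mean the lack of a CTCF site.

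Genes of related functions were set beside these by lists. Of 10 cohesin regulators 9 had a promoter OCR in all 7 libraries, from Hdac8, the deacetylase of SMC3, at a mean percentile of 77.5 to Sgo1, the protector of centromeric cohesin, at 99.5. Pttg1, which encodes securin, had none in any library. Of the 4 genes of meiotic cohesin, Smc1b, Stag3 and Rad21l had none in any library, and Rec8, the meiotic kleisin, had one in all 7 at a mean fold enrichment of 15.8 ± 2.01 and a mean percentile of 74.4. Among 9 germline genes only Dazl had one, at a fold enrichment of 6.11 ± 0.867 and a mean percentile of 47.7. The germline genes thus resembled Ctcfl in 8 of 9 cases, where 32.0% of all protein-coding genes had no promoter OCR.

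All 8 condensin genes had a promoter OCR in all 7 libraries, from Ncaph at a mean percentile of 89.3 to Ncapg2 at 98.3. So had the 6 genes of the SMC5/6 complex, from Nsmce2 at 86.1 to Smc6 at 98.6, and the 6 genes of CTCF partners, from Ldb1 at 94.7 to Chd8 at 99.3. The medians were 94.5, 92.0 and 98.2, beside 96.7 for the 8 genes of CTCF and cohesin and 96.1 for the cohesin regulators. Over all protein-coding genes with a promoter OCR in any library, also those with one in fewer than 7, the median was 92.0. These are descriptions, and no test was made between lists.

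**Figure D5:**
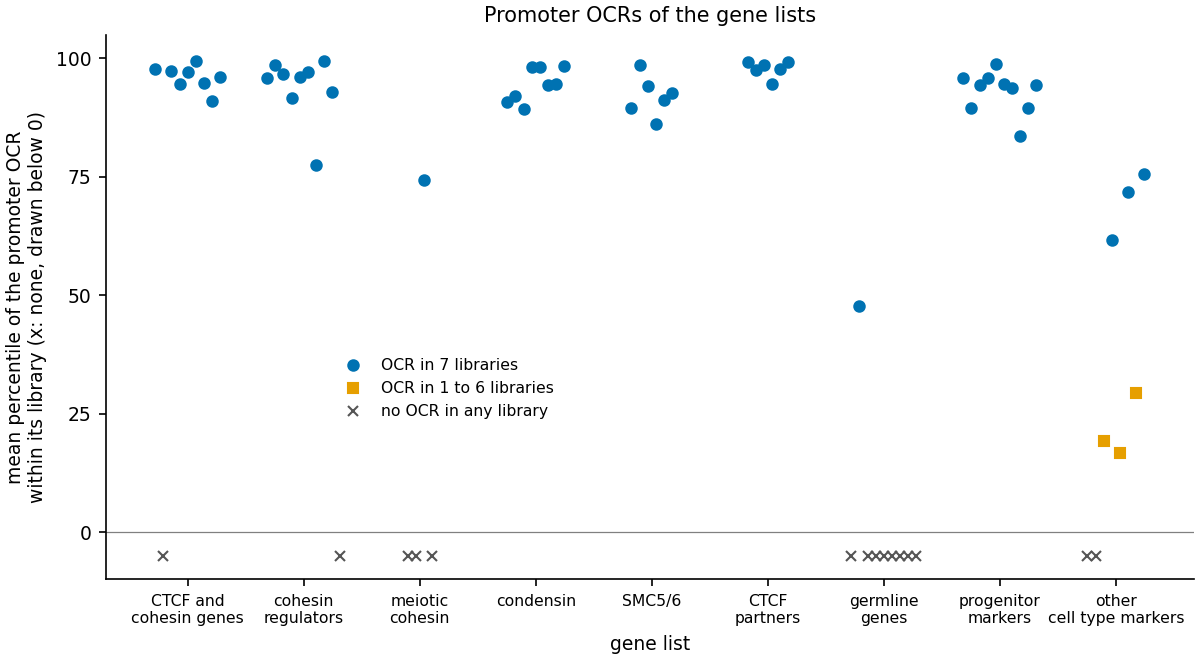
Mean intensity percentile within the library of the promoter OCR of each gene (vertical axis, 0 to 100) by list (horizontal axis), with circles for an OCR in 7 libraries, squares for 1 to 6 libraries and crosses below 0 for none in any. Ctcfl is the cross in the first list, and 3 of 4 meiotic cohesin genes and 8 of 9 germline genes are crosses too.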

How the data were processed

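Peak lists of 7 bulk ATAC-seq libraries were used, which the labels place in 1 group. Adapter trimming (Cutadapt), alignment to mm10 (BWA-mem) and per-library peak calling (MACS2) were done by the authors, and versions and options are not given in the sources used here. The deposited lists give a fold enrichment (a ratio of summit to background), a −log10 p, a −log10 q and the summit offset, without normalization between libraries. Fold enrichments came in equal steps, 1 read each (100% whole within 0.05 of a step), which gave the reads at the summit. The number of reads per library is not in the lists, and precision is given by the SD over libraries. Peak ends lay within the chromosomes of GRCm38.p6.

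Genes and starts came from GENCODE M21. For each gene and library the most intense peak within 3 kb of any start was its promoter OCR. Tests were exact sign-flip permutations over 7 libraries (128 patterns), adjusted by Benjamini-Hochberg at 0.05. The study describes the libraries as made from separate cultures, which the labels do not state, and p-values measure the spread between them. The genes and lists were chosen with earlier results of these data known. Genes named beside the 9 were those without a promoter OCR in all libraries (where 5 or fewer) and the highest and lowest of each list, the 3 promoters nearest to Ctcf and other promoters in the windows; the markers of other cell types were named after their values were seen. Alternatives were 84593 peaks from each library, peaks with a −log10 q of 5 or more, −log10 p in place of fold enrichment, promoters of 1 kb, flanks of 0 and 25 kb, at least 0.5 of a peak in the window, chromosome scaling, and each library left out; 1 more, restricted to summits inside the window, was chosen after seeing the data. Functions were tested on simulated data. The software was matplotlib 3.10.9, scipy 1.17.1, pandas 2.3.3 and numpy 2.4.6 under Python 3.11.15.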

Additional observations from a re-analysis of the deposited data

Results flagged for a closer look

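Of 26 measures over the 7 libraries, 2 had a library whose distance from the nearest other took a larger share of the whole range than Dixon's 95% limit allows, where chance gives about 1 in 20. The promoter OCR of Smc3 was 3277 bp wide in HPC7-1 and at most 1998 bp in the other libraries, a gap of 0.834 of the range. The promoter OCR of Stag2 was 4667 bp wide in HPC7-1 and at most 3390 bp in the others, a gap of 0.880 of the range. HPC7-1 has the highest background, 20.4 reads, and the part of depth in these widths was not tested.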

How the results depend on the processing

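The number of genes with a promoter OCR in all libraries was 8 under each alternative run for it. With the same number of peaks from every library, the merged OCRs in the windows fell from 107 to 70 and the density from 6.77 to 5.25 per 100 kb, while the other alternatives gave 74 to 130 merged OCRs and 5.83 to 6.14 per 100 kb. With each library left out in turn these were 96 to 107 and 6.39 to 7.03. Of the 28 pairs, between 19 (chromosome scaling, where 6 of the 24 called pairs reversed) and 25 (without HPC7-4) passed, and between 24 and 25 with a library left out. The promoter passed against the strongest other OCR in 7 or 8 genes. The exception was Ctcf, whose difference of 0.94 on the log10 scale lay between 0.88 and 1.09 with a library left out or with summits inside the window (chosen after seeing the data) and was 0.61 with promoters of 1 kb, but its adjusted p (exact permutation) was 0.0625 without any 1 of the libraries other than HPC7-7, where 6 libraries allow no p below 0.0312. The CTCF core share was 2.80% (4.94% of all merged OCRs), 4.65% in OCRs of all 7 libraries (7.52%), 1.87% within 100 bp of a summit (4.52%), and 0% with the reversed consensus (0.0324%). Among the promoters of all protein-coding genes the mean percentile of Ctcf was 88.8 and that of Smc1a 75.1. Among those of the same chromosome it was lower for Ctcf, 74.5, and higher for Smc1a, 93.1. The cause of these shifts was not tested. No paired analysis was possible because the labels give no second group whose replicates could be matched by number, and differences between genes or OCRs were taken within each library. A promoter below the lowest listed fold enrichment, 1.68 to 2.44, would not be seen, so none at Ctcfl means not detectable at these thresholds.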
